A study of Homo sapiens with 12 samples.

Results

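This report concerns 39 genes that low oxygen induces through hypoxia-inducible factors and that act outside glucose metabolism. They were taken from a given list of gene symbols, and all 39 were found among the 17818 NCBI gene identifiers of the deposited table, after its transcript rows had been summed per gene. The RNA came from SW480 and HCT116, both established human colorectal cancer cell lines. Per the labels, each line carried either an empty vector (genotype NC, the control) or a USP51 overexpression construct. USP51 belongs to the deubiquitinases, which take ubiquitin off other proteins. The cells of all 4 groups were kept in DMEM with fetal bovine serum under carbon dioxide, and the labels name no oxygen treatment. What promoter drove the construct, and whether cells were cloned or pooled, is not given in the sources used here.

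Hypoxia-inducible factors are pairs of an oxygen-regulated alpha subunit (HIF1A or EPAS1) and the constant partner ARNT. When oxygen is present, prolyl hydroxylases of the EGLN family mark the alpha subunit, and the VHL ubiquitin ligase then has it destroyed. When oxygen is short the pair enters the nucleus and binds DNA at sites whose core reads ACGTG or GCGTG. The targets outside glucose metabolism remove mitochondria, modify collagen, demethylate histones, store lipid, restrain growth signals and carry messages between cells.

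The labels describe 12 libraries, 3 per group. Single-library values could not be tied to labels, so the group means made by the authors were used, and no standard deviation, test or p-value accompanies any value. In the names of these means, C was taken for control and E for overexpression, letters left unexplained by the labels, and every direction given here rests on that reading. USP51 itself was at 0.513 TPM (a length-corrected share of all transcripts) in the SW480 C mean and 25.7 TPM in the E mean. In HCT116 it was listed at 0 in the C mean and at 40.8 TPM in the E mean. The means summed to between 15506686 and 15920306 estimated counts. Of 8 colon epithelial markers, 6 or 7 reached 1 TPM in each mean, with a summed level of 6184 to 11470 TPM. CDX1 was below 1 TPM in all 4 means and VIL1 in both HCT116 means. The 5 fibroblast markers in the table summed to 0.173 to 0.343 TPM and the 5 endothelial markers to 0.23 to 0.417 TPM. The 6 leukocyte markers summed to 6.64 to 8.34 TPM, with 1 or 2 of them at 1 TPM or more.

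In HCT116 the hypoxia targets were higher with USP51 almost throughout. A gene was taken as measured where at least 1 of the 2 means compared reached 1 TPM, and its response was log2((TPM with USP51 + 1)/(control TPM + 1)), a scale that understates differences of low genes. Of the 34 members measured in HCT116, 32 lay above control, beside 60.8% of all 12393 measured genes. A response of at least 1.5-fold was seen for 14 members (41.2%), where 1.96% of all genes passed that size upward. At 2-fold these were 4 members (11.8%) against 0.258% of all genes. None was 1.5-fold lower, where 0.145% of all genes were. With a pseudocount of 0.1 TPM, 15 members were 1.5-fold higher, and the all-gene shares were 4.04% higher and 0.412% lower. The median response of the members was 0.45 on the log2 scale and that of all genes was 0.04. The summed level of the 39 members was 818.6 TPM in HCT116 controls and 1222 TPM with USP51. These are bulk RNA values, so a higher level in every cell and a larger share of cells with a high level cannot be told apart.

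The ratio of counts per total count is given below with a 95% exact Clopper-Pearson interval that treats each mean as the count of 1 library. It covers counting error only, and how far libraries of 1 group spread apart is not part of it. The interval lay wholly above 1 for 29 of the 34 members in HCT116 and for 17.1% of all measured genes. It lay wholly below 1 for none of the members and for 11.7% of genes.

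**Figure D1:**
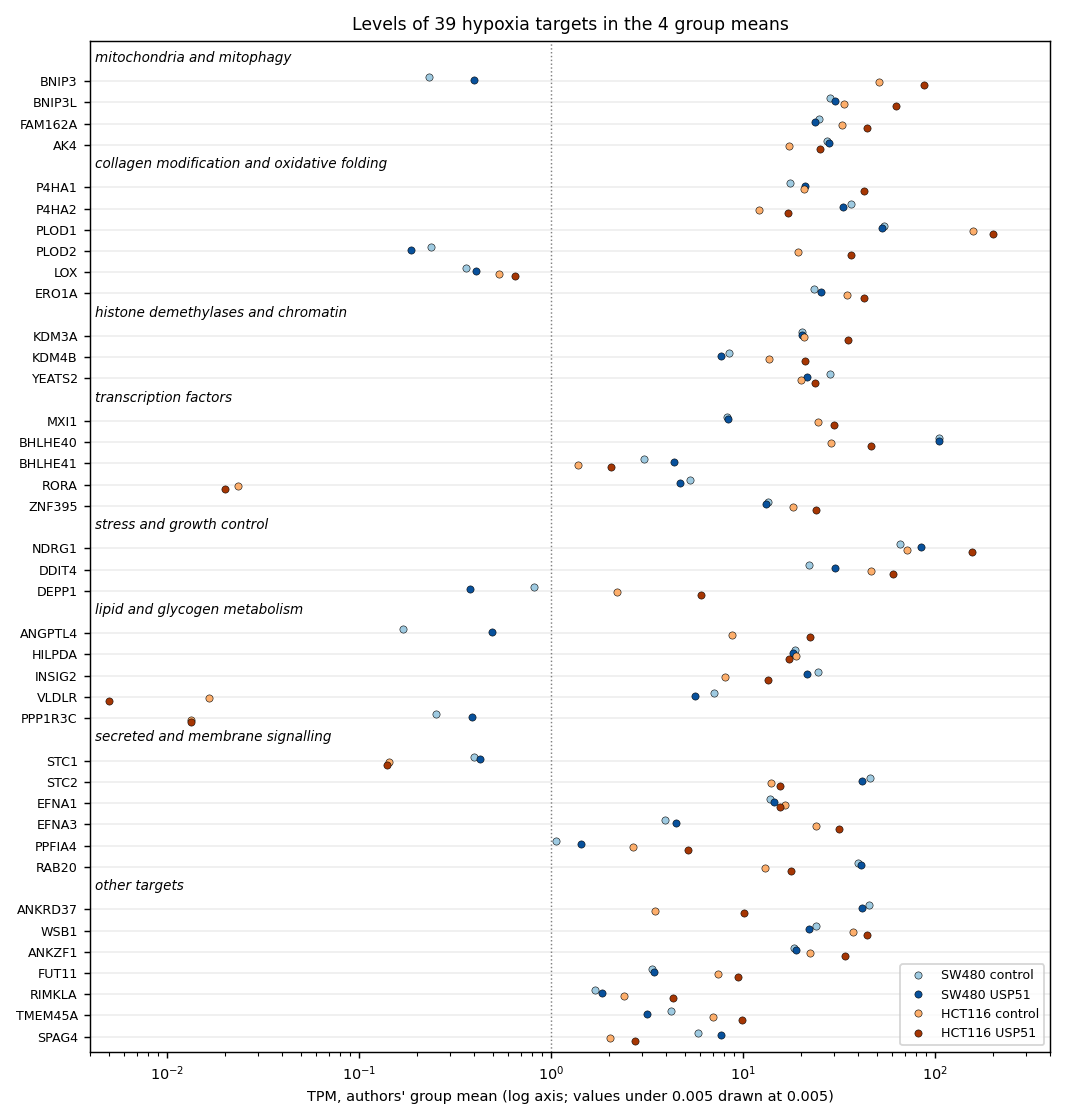
Mean TPM of the 39 members in the 4 groups, on a log axis, ordered by role. The dotted line marks 1 TPM. HCT116 with USP51 lies to the right of its control for 32 of the 34 members measured there, and BNIP3, PLOD2 and ANGPTL4 are below 1 TPM in both SW480 means.

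Promoter sequences of the members were read for the core letters of the HIF site. The RefSeq promoter table (GRCh38.p14) held 40 windows for 31 of the 39 members. The 250 bases before each start were searched on both strands for ACGTG and GCGTG, read on the other strand as CACGT and CACGC. The letters CACGTG hold ACGTG on both strands. At least 1 window held ACGTG for 20 of the 31 members (64.5%), beside 25.3% of 15843 protein-coding genes. GCGTG was in a window of 18 members (58.1%), beside 45.6% of protein-coding genes. A match is a description of letters and was not tied to binding here. The members were listed as known targets, so the share is not independent of their choice.

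The windows shown first are those of the 4 members with the largest response in HCT116 among those with a window and a match. Capitals mark the matches, and each sequence reads 5′ to 3′ in the direction of transcription and ends 1 base before the start. ANKRD37 lies at chr4:185396591-185396840 on the plus strand, with matches that begin 162, 161 and 143 bases before the start. ANGPTL4 lies at chr19:8363905-8364154 on the plus strand, with 1 match at 234 bases. P4HA1 lies at chr10:73096867-73097116 on the minus strand, with 1 match at 86 bases. PLOD2 lies at chr3:146161185-146161434 on the minus strand, with matches at 213, 200 and 146 bases.
ANKRD37: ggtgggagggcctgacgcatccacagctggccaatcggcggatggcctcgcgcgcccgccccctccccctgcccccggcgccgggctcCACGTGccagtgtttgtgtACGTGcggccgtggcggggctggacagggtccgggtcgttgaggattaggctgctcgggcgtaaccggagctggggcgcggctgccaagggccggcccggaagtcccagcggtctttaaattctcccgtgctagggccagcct
ANGPTL4: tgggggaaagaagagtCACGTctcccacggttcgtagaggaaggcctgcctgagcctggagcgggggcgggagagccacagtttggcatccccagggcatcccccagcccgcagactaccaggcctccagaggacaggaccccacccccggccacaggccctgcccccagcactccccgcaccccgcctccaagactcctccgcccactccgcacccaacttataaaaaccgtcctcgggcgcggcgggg
P4HA1: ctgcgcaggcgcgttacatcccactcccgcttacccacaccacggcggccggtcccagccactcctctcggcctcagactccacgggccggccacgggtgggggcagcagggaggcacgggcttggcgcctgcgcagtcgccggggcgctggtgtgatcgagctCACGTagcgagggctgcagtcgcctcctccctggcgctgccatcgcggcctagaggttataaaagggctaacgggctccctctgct
PLOD2: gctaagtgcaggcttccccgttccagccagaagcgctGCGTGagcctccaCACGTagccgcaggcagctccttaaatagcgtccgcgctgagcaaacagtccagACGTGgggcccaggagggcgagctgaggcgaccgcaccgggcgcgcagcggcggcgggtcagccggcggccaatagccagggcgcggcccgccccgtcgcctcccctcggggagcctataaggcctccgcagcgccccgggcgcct

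The windows of EFNA1 (chr1:155127626-155127875, plus strand) and STC2 (chr5:173328415-173328664, minus strand) come next. Among members measured in HCT116 that have a window, these 2 had the smallest response. They were chosen without regard to a match, while the windows shown first had to hold one. The 2 sets therefore cannot be compared for matches. NDRG1, BNIP3L and HILPDA have no window and could enter neither set. The EFNA1 and STC2 windows each held GCGTG on one strand or the other, and neither held ACGTG within these bases. LOX and PPP1R3C, below the filter in HCT116, had windows with ACGTG.
EFNA1: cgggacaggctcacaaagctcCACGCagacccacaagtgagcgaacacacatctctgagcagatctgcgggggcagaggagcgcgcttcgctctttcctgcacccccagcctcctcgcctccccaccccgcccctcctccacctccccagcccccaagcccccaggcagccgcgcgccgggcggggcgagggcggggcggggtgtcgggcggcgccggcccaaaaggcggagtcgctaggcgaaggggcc
STC2: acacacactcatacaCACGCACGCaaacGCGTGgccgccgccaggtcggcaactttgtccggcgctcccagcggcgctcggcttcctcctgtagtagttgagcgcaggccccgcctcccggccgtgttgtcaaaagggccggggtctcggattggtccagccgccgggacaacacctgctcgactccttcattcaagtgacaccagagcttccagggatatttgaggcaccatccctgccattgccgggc
Among members with a window that were measured in HCT116, the 18 with ACGTG had a median response of 0.61 (range 0.24 to 1.32), and 10 of them passed 1.5-fold. The 9 without it had a median of 0.39 (range -0.09 to 1.14), and 2 of them passed. The ranges overlapped. Of all measured genes, with or without a window, 1.96% passed that size upward in HCT116. All genes were not split by ACGTG in the same way. Members without a window, such as NDRG1 and BNIP3L, are missing from both counts. Whether ACGTG goes with the response was therefore not tested. DEPP1, with no match of either kind in its window, had one of the largest responses.

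The growth-restraining targets held the most abundant of the members that passed 2-fold. NDRG1 (NCBI gene 10397, chromosome 8, 133237175 to 133297252, GRCh38.p14) encodes a stress-induced protein that slows growth and metastasis in several tumours. It was at 65.8 TPM in SW480 controls, 84.3 TPM in SW480 with USP51, 71.9 TPM in HCT116 controls and 157 TPM in HCT116 with USP51. The HCT116 mean with USP51 stood far above the other 3, and the count ratio was 2.14 (2.03 to 2.26) in HCT116 and 1.32 (1.24 to 1.40) in SW480. A single curated transcript, NM_006096, made up 94.6% of NDRG1 in HCT116 controls and 94.4% with USP51. DEPP1 (NCBI gene 11067), a target of FOXO factors linked to autophagy, was at 2.21 TPM in HCT116 controls and 6.09 TPM with USP51 (ratio 2.71, 1.89 to 3.94). In SW480 it was below the filter, at 0.813 and 0.38 TPM. DDIT4, the mTORC1 inhibitor REDD1, was at 22.1 and 30.2 TPM in SW480, and 46.8 and 60.9 TPM in HCT116. Its ratios of 1.41 (1.23 to 1.63) in SW480 and 1.28 (1.16 to 1.41) in HCT116 had overlapping intervals.

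Among the mitochondrial targets, both mitophagy receptors were higher in HCT116. BNIP3L, also called NIX (NCBI gene 665), places mitochondria in autophagosomes. It was at 28.3 and 30.2 TPM in SW480 without and with USP51, and 33.6 and 62.8 TPM in HCT116. Its HCT116 mean with USP51 was 1.83 times its control (1.7 to 1.97). BNIP3 (NCBI gene 664, chromosome 10, 131967684 to 131981923), the other receptor, was at 51.4 TPM in HCT116 controls and 88.1 TPM with USP51 (ratio 1.68, 1.53 to 1.84). In SW480 it was at 0.233 and 0.40 TPM, below the filter. BNIP3 overlaps PPP2R2D in the annotation. FAM162A, a mitochondrial protein with a role in hypoxic cell death, was at 33.0 and 44.4 TPM in HCT116, and 24.96 and 23.9 TPM in SW480. AK4, an adenylate kinase of the mitochondrial matrix, was at 17.5 and 25.4 TPM in HCT116, and 27.3 and 28.2 TPM in SW480. Each of the 4 was above control in HCT116, 2 of them by at least 1.5-fold, beside 60.8% and 1.96% of all genes.

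The collagen-modifying enzymes were also higher in HCT116 where they were measured. P4HA1 (NCBI gene 5033, chromosome 10, 73007217 to 73096866) is the catalytic subunit of collagen prolyl 4-hydroxylase, which stabilises the triple helix. It was at 17.7 and 21.1 TPM in SW480, and 20.9 and 42.7 TPM in HCT116, with count ratios of 1.23 (1.09 to 1.39) and 2.0 (1.81 to 2.22). Its 2 main curated transcripts were both higher in HCT116 with USP51, NM_000917 at 9.67 and 21.4 TPM and NM_001017962 at 11.02 and 20.8 TPM. PLOD2 (NCBI gene 5352, chromosome 3, 146069440 to 146161184), a lysyl hydroxylase that sets the type of collagen crosslink, was at 19.3 and 36.5 TPM in HCT116 (ratio 1.84, 1.68 to 2.02). In SW480 PLOD2 was at 0.237 and 0.187 TPM. The response differed between its transcripts in HCT116, with NM_182943 at 10.7 and 21.8 TPM and NM_000935 at 4.85 and 6.53 TPM.

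The other collagen enzymes differed less. P4HA2 was at 12.2 and 17.2 TPM in HCT116 (ratio 1.38, 1.24 to 1.54), and 36.6 and 33.4 TPM in SW480 (ratio 0.94, 0.878 to 1.01). PLOD1, the most abundant member of the list in HCT116, was at 158.2 and 200.6 TPM there and at 54.2 and 53.1 TPM in SW480. ERO1A, which feeds oxidising equivalents to disulfide formation in the endoplasmic reticulum, was at 34.8 and 42.8 TPM in HCT116, and 23.4 and 25.6 TPM in SW480. LOX, the lysyl oxidase that crosslinks collagen, was below the filter in both lines, at 0.36 and 0.407 TPM in SW480, and 0.54 and 0.647 TPM in HCT116.

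Of the histone demethylases, KDM3A was higher in HCT116 and level in SW480, while KDM4B depended on which transcripts were summed. KDM3A (NCBI gene 55818), which removes methyl groups from a lysine of the histone tail, was at 20.9 TPM in HCT116 controls and 35.5 TPM with USP51 (ratio 1.67, 1.54 to 1.81). In SW480 it was at 20.2 and 20.4 TPM. The other 3 means of KDM3A lay close together, below that of HCT116 with USP51. The higher level in HCT116 lay in the transcript NM_018433, at 15.5 and 29.6 TPM, while NM_001146688 was at 2.74 and 2.95 TPM. KDM4B, which acts on other methylated lysines as well, was at 13.6 and 21.0 TPM in HCT116 (ratio 1.53, 1.39 to 1.68), and 8.45 and 7.69 TPM in SW480. Most of KDM4B was assigned to predicted transcripts: XM_005259521 made up 75% of it in HCT116 controls, and the scarce XM_011527814 was at 0.627 and 2.92 TPM there (ratio 4.55, 3.14 to 6.76). With curated transcripts alone the log2 response of KDM4B was 0.21 in place of 0.59 in HCT116 and 0.42 in place of -0.12 in SW480, so the order of the lines turned round. The curated transcript NM_015015 of KDM4B was at 0.3 and 0.713 TPM in SW480 (ratio 2.42, 1.35 to 4.54), and 2.05 and 2.50 TPM in HCT116 (ratio 1.19, 0.92 to 1.54). YEATS2, a histone acyl-lysine reader, went opposite ways when summed over its transcripts. It was at 28.4 and 21.7 TPM in SW480 (ratio 0.779, 0.726 to 0.836) and at 19.99 and 23.6 TPM in HCT116 (ratio 1.14, 1.06 to 1.23). Its transcripts went apart within each line. The curated NM_018023 was lower in HCT116 (ratio 0.701, 0.589 to 0.832) and in SW480 (ratio 0.645, 0.558 to 0.746). The predicted XM_017006811 was higher in HCT116 (ratio 2.17, 1.76 to 2.68) and in SW480 (ratio 1.88, 1.4 to 2.55).

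Of the transcription factors, BHLHE40 passed 1.5-fold. BHLHE40 (NCBI gene 8553), a repressor also known as DEC1, was at 28.9 and 46.3 TPM in HCT116 (ratio 1.57, 1.44 to 1.71). In SW480 it was the most abundant member of the list and was level, at 105.7 and 104.9 TPM (ratio 1.02, 0.975 to 1.07). Its relative BHLHE41, or DEC2, was scarce and had the same count ratio in both lines, at 3.07 and 4.39 TPM in SW480 (ratio 1.47, 1.15 to 1.89) and at 1.38 and 2.05 TPM in HCT116 (ratio 1.47, 1.01 to 2.15). ZNF395 was at 18.2 and 24.1 TPM in HCT116, and 13.5 and 13.1 TPM in SW480. RORA, a nuclear receptor of the circadian clock, was at 5.28 and 4.71 TPM in SW480, and 0.0233 and 0.02 TPM in HCT116.

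MXI1, a MAX partner that opposes MYC, was at 24.7 and 29.7 TPM in HCT116, and 8.22 and 8.40 TPM in SW480. Its transcripts, which were looked at after their values had been seen, went apart in HCT116. NM_130439 was at 10.5 and 15.8 TPM (ratio 1.47, 1.28 to 1.69), and its share of the gene was 42.6% and 53.3%. NM_005962 was at 13.7 and 12.4 TPM (ratio 0.891, 0.774 to 1.02). In SW480 the same transcripts were at 4.02 and 4.25 TPM and at 3.93 and 3.71 TPM. In GENCODE 29 the start of NM_130439 is at 110207605 on chromosome 10, and that of NM_005962 is at 110225993. The window before the first of these starts held neither ACGTG nor GCGTG, and the window before the second held GCGTG 131 bases before its RefSeq start. A window between them, before the start of NM_001008541 at 110210231, held both, 127 and 113 bases before the start. That scarce MXI1 transcript was at 0.527 and 1.5 TPM in HCT116 (ratio 2.86, 1.55 to 5.55). How reads of shared exons were divided between transcripts is not stated, so transcript values of MXI1 are less certain than its gene values.

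The lipid targets divided. ANGPTL4 (NCBI gene 51129, chromosome 19, 8364155 to 8374370), which is secreted and inhibits lipoprotein lipase, was at 8.78 TPM in HCT116 controls and 22.4 TPM with USP51 (ratio 2.51, 2.06 to 3.06). Its transcript NM_139314 held 79.6% of it in HCT116 controls and 82.5% with USP51. In SW480 ANGPTL4 was at 0.17 and 0.493 TPM, and its interval there was 0.735 to 16.9. INSIG2, which retains the sterol sensor SCAP in the endoplasmic reticulum, was at 8.05 and 13.6 TPM in HCT116 (ratio 1.66, 1.39 to 1.99), and 24.7 and 21.7 TPM in SW480 (ratio 0.912, 0.813 to 1.02). HILPDA, a lipid droplet protein that inhibits the lipase ATGL, was among the 2 members below control in HCT116. It was at 18.8 and 18.3 TPM in SW480, and 19.0 and 17.4 TPM in HCT116, and both intervals included 1. VLDLR, the very low density lipoprotein receptor, was at 7.06 and 5.66 TPM in SW480 (ratio 0.829, 0.739 to 0.930), and 0.0167 and 0 TPM in HCT116. PPP1R3C, which brings protein phosphatase 1 to glycogen, was below the filter, at 0.253 and 0.39 TPM in SW480 and 0.0133 TPM in both HCT116 means.

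Among the secreted and membrane signalling members, PPFIA4, a liprin scaffold protein, passed 1.5-fold in HCT116. It was at 2.69 and 5.15 TPM there (ratio 1.92, 1.56 to 2.37) and at 1.06 and 1.43 TPM in SW480 (ratio 1.43, 1.02 to 2.02). With curated transcripts alone its log2 response in HCT116 was 0.45 in place of 0.74, below 1.5-fold. RAB20, a small GTPase of endosomes, was at 13.0 and 17.9 TPM in HCT116, and 39.6 and 41.5 TPM in SW480. The ephrin ligand gene EFNA3 was at 24.0 and 31.7 TPM in HCT116 (ratio 1.29, 1.13 to 1.48), and 3.91 and 4.51 TPM in SW480. EFNA1, another ephrin ligand gene, was at 16.6 and 15.5 TPM in HCT116 and was the other member below control, with an interval of 0.752 to 1.11. The stanniocalcin gene STC2, a secreted glycoprotein hormone, was at 14.0 and 15.7 TPM in HCT116, and 45.8 and 41.6 TPM in SW480 (ratio 0.937, 0.885 to 0.992). STC1, the other stanniocalcin, was below the filter, at 0.4 and 0.43 TPM in SW480, and 0.143 and 0.14 TPM in HCT116.

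The remaining members included the largest response of the list. ANKRD37 (NCBI gene 353322, chromosome 4, 185396841 to 185400723), a small ankyrin repeat protein, was at 3.47 TPM in HCT116 controls and 10.1 TPM with USP51. These levels rested on mean counts of 18.5 and 52, its locus overlaps LRP2BP and UFSP2, and the ratio was 2.79 (1.62 to 5.00). In SW480 it was at 45.7 and 41.6 TPM (ratio 0.937, 0.779 to 1.13), above both HCT116 means. RIMKLA, an enzyme that makes N-acetylaspartylglutamate, was at 2.42 and 4.33 TPM in HCT116 (ratio 1.75, 1.5 to 2.04), and 1.69 and 1.86 TPM in SW480. ANKZF1, which releases stalled peptides from ribosomes, lay just under 1.5-fold with a log2 response of 0.58 in HCT116, where KDM4B lay just over it with 0.59. ANKZF1 was at 22.5 and 34.1 TPM there, and 18.4 and 19.0 TPM in SW480. WSB1, the substrate adaptor of a ubiquitin ligase, was at 37.5 and 44.6 TPM in HCT116 and 24.0 and 22.2 TPM in SW480. TMEM45A, a transmembrane protein, lay above control in HCT116 (7.01 and 9.93 TPM) and below it in SW480 (4.25 and 3.16 TPM), and its SW480 interval of 0.509 to 1.14 included 1. FUT11 and SPAG4 were above control in HCT116, by 0.32 and 0.31 on the log2 scale. Their intervals of 0.997 to 1.58 and 0.677 to 2.49 both included 1, and SPAG4 rested on mean counts of 19.3 and 24.3.

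**Figure D2:**
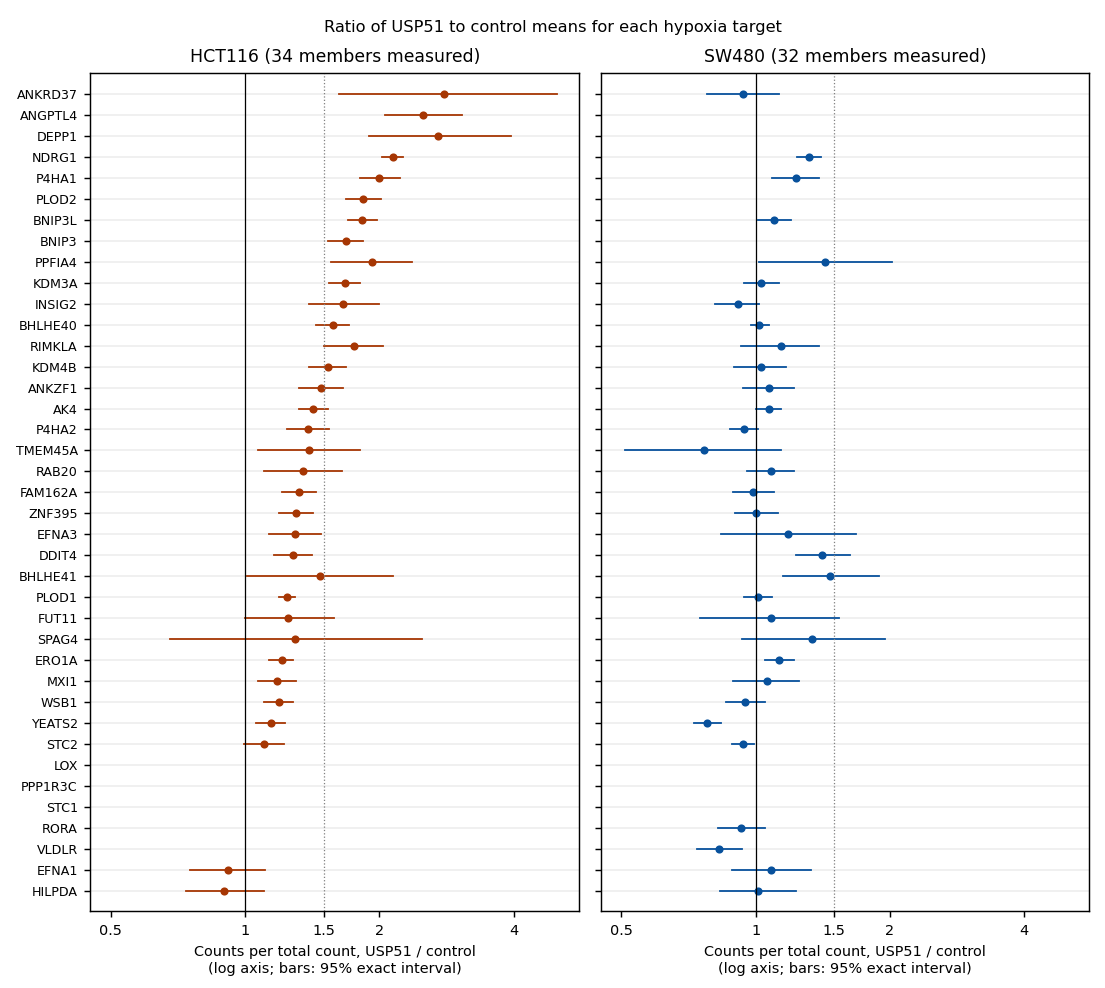
Ratio of counts per total count, USP51 over control, for each member in HCT116 (left) and SW480 (right), on a log axis with 95% exact intervals that cover counting error only. Members below 1 TPM in both means of a line have no point. In HCT116 the points run from 0.898 for HILPDA to 2.79 for ANKRD37, and in SW480 from 0.765 for TMEM45A to 1.47 for BHLHE41.

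In SW480 the same genes showed little shift in common. Of 32 measured members, 17 lay above control and 15 below, and none passed 1.5-fold in either direction, a size that 0.534% of all genes passed upward and 0.887% downward. The share above control was 53.1%, beside 38.8% of the 12175 genes measured in that line. In CPM with TMM factors the all-gene calls were 122 higher and 113 lower genes in place of 65 and 108, and in CPM without factors 115 and 116. The median response of the members was 0.02 and that of all genes -0.04. With TMM factors the all-gene median was 0.01, so the 38.8% holds for TPM values. KDM4B, PLOD1, BHLHE40 and HILPDA lay below control in TPM but had count ratios of 1.03, 1.01, 1.02 and 1.01. Summed over the 39 members, the level was 753.6 TPM in controls against 766 TPM with overexpression. The counting interval lay above 1 for 8 members (25%, beside 13.6% of genes) and below 1 for 3 (9.38%, beside 14.2%). The 4 members at least 1.2-fold higher were DDIT4, BHLHE41, NDRG1 and SPAG4, and 3.6% of genes passed that size. The SPAG4 interval of 0.934 to 1.95 included 1. The 3 that were 1.2-fold lower were YEATS2, TMEM45A and VLDLR, beside 10.1% of genes.

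**Figure D3:**
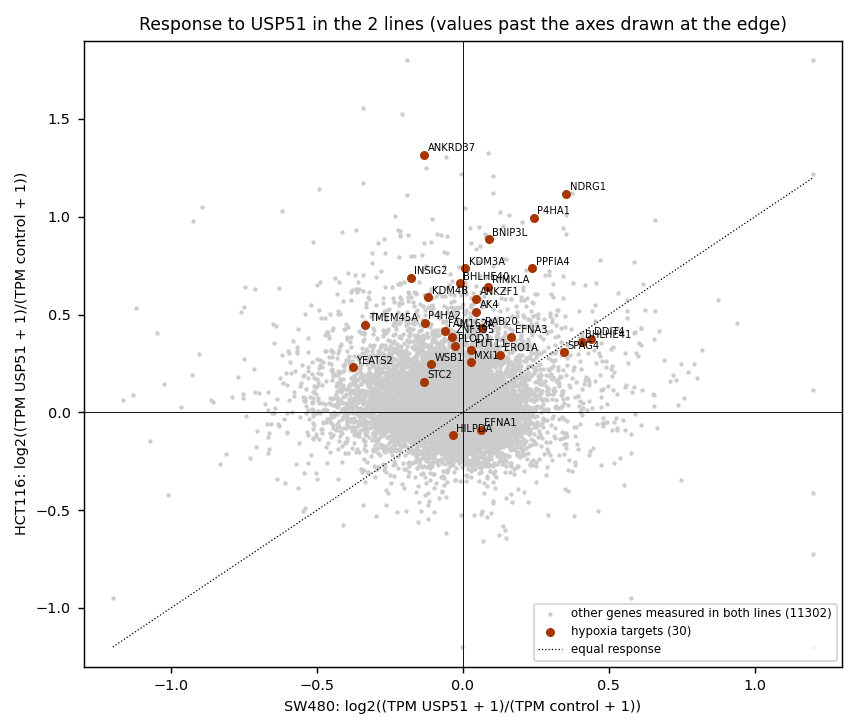
Response to USP51 in SW480 (x) and HCT116 (y), as log2((TPM + 1)/(TPM + 1)), for 30 members measured in both lines and the other measured genes in grey. The dotted line marks an equal response, and 25 of the 30 members lie above it.

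The responses of the lines were then set against each other, as a difference of 2 log2 responses with no test. Among 30 members measured in both lines, 25 had the larger value in HCT116 (83.3%, beside 65.0% of 11332 genes). The difference was at least 1.5-fold for 11 members (36.7%), beside 3.95% of genes, and 1.5-fold the other way for none (0.459% of genes). With TMM or RLE factors 7 of these 11 members kept that size (BHLHE40, KDM4B, P4HA2 and YEATS2 did not), DEPP1 was added, and the all-gene share the other way was 0.762% with TMM. The median difference was 0.48 for the members and 0.08 for all genes. With TMM factors the all-gene median difference was -0.016, so the 65.0% holds for TPM values. ANKRD37 had the largest, at 1.45, followed by INSIG2 at 0.87, BNIP3L at 0.80, TMEM45A at 0.78, NDRG1 at 0.76 and P4HA1 at 0.75. Those with the larger value in SW480 were EFNA1, HILPDA, DDIT4, BHLHE41 and SPAG4, by 0.04 to 0.15. With a pseudocount of 0.1 TPM the difference was 0.039 for BHLHE41 and 0.026 for SPAG4, so these have no stable direction. Across the 30 members Spearman's rho between the 2 responses was 0.135, given as a description over genes that share the same 4 means.

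In the control means a part of these targets stood at different levels in the lines, as did many other genes. Of 36 members measured in at least 1 control mean, 9 were at least 2-fold higher in SW480 (25%, beside 13.4% of 13033 genes) and 7 at least 2-fold lower (19.4%, beside 14.7%). BNIP3 differed most among the lower ones, at 0.233 TPM in SW480 and 51.4 TPM in HCT116 (count ratio 0.00414, 0.000852 to 0.0121). PLOD2 (ratio 0.0128, 0.00582 to 0.0244) and ANGPTL4 (ratio 0.0208, 0.00424 to 0.0620) were likewise near 0 in SW480. EFNA3, PLOD1, MXI1 and DDIT4 were the other 4. Among the 9 higher ones ANKRD37 stood 12.9 times above HCT116 (8.08 to 21.8), BHLHE40 3.68 times (3.41 to 3.97), STC2 3.30 times (3.04 to 3.59) and INSIG2 3.15 times (2.69 to 3.72). VLDLR and RORA were among them on mean counts of 1.7 and 2.3 in HCT116, with ratios of 332 (91.6 to 2750) and 283 (78.0 to 2340). P4HA2, RAB20 and SPAG4 completed the 9. These calls used the log2(TPM + 1) scale and depend on it. With TMM factors DDIT4 fell short of 2-fold (log2 -0.951) and BHLHE41 passed it (1.040). With a pseudocount of 0.1 TPM, DEPP1 (-1.341), PPFIA4 (-1.262) and FUT11 (-1.117) were also 2-fold lower, and BHLHE41 (1.101) was 2-fold higher. NDRG1, P4HA1, KDM3A and HILPDA were at similar levels in both controls, within 1.2-fold on the log2(TPM + 1) scale.

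**Figure D4:**
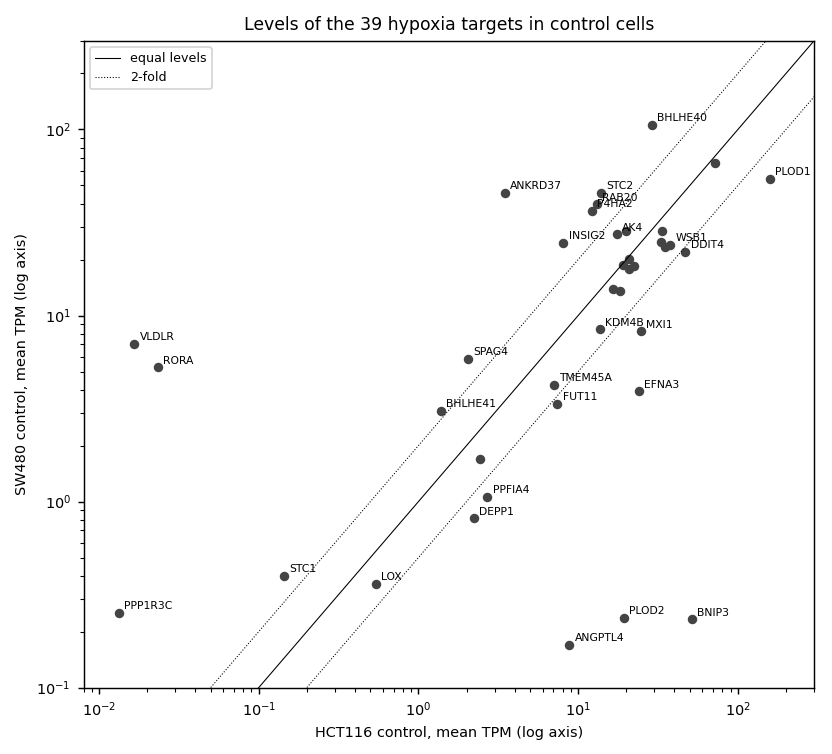
Mean TPM of the 39 members in control cells of HCT116 (x) and SW480 (y), both on log axes, with lines at equal levels and at 2-fold. Labels mark members that differ by at least 1.5-fold or lie below 1 TPM in both. BNIP3, PLOD2 and ANGPTL4 lie far below the line and VLDLR and RORA far above it.

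Other genes of the pathway were read from lists chosen along with the members. Among 16 measured HIF pathway components in HCT116 the median response was 0.04, 11 were higher than control, and 1 passed 1.5-fold, beside 60.8% and 1.96% of all genes. The counting interval lay above 1 for 5 of the 16 and below 1 for none, beside 17.1% and 11.7% of all genes. The component past 1.5-fold was the prolyl hydroxylase gene EGLN3, itself a known HIF target, at 4.54 and 8.44 TPM in HCT116 (ratio 1.83, 1.45 to 2.32). In SW480 EGLN3 was at 8.54 and 13.3 TPM (ratio 1.61, 1.35 to 1.91). It just passed 1.5-fold there too, as 1 of 16 measured components (6.25%, beside 0.534% of all genes). EGLN1, the main oxygen sensor of the family, was at 25.3 and 33.1 TPM in HCT116 (ratio 1.27, 1.18 to 1.38), and 21.6 and 21.1 TPM in SW480. HIF1A was at 85.0 and 84.1 TPM in HCT116, EPAS1 at 20.8 and 23.9 TPM, ARNT at 16.8 and 19.5 TPM and VHL at 18.6 and 19.5 TPM. In SW480 HIF1A was at 81.5 and 72.9 TPM and EPAS1 at 115.7 and 120.7 TPM. These are transcript levels, and protein was not measured. Of 21 targets in glucose use, pH and vessels, 20 were higher with USP51 in HCT116 (95.2%, beside 60.8% of all genes). Past 1.5-fold were 7 of the 21 (33.3%, beside 1.96%), and their median was 0.47. In SW480, 15 of 20 of them were above control (75%, beside 38.8% of all genes). CA9 (2.78 and 9.50 TPM) alone among these targets passed 1.5-fold there (5%, beside 0.534% upward), and the median was 0.06. Their counting intervals in SW480 lay above 1 for 12 of the 20 and below 1 for 3, beside 13.6% and 14.2% of all genes.

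Family relatives that are not on the hypoxia list were mostly above control in HCT116 too, with a smaller median than the members. Whether any of these relatives is itself induced by low oxygen was not examined. Of 28 measured relatives in HCT116, 25 were above control (89.3%) and 1 passed 1.5-fold (3.57%), and their median was 0.15. Those shares stand beside 60.8% and 1.96% of all genes. The counting interval lay above 1 for 14 relatives and below 1 for 1, beside 17.1% and 11.7% of all genes. The relative past 1.5-fold was LOXL2, a lysyl oxidase, at 12.6 and 24.6 TPM in HCT116 (ratio 1.91, 1.7 to 2.14). DDIT4L, a relative of DDIT4, came next at 7.69 and 12.0 TPM (ratio 1.52, 1.26 to 1.84), and then NDRG4 at 6.43 and 9.55 TPM (ratio 1.47, 1.22 to 1.78). The demethylase relatives differed among themselves, with KDM4C at 8.10 and 10.4 TPM (ratio 1.25, 1.08 to 1.44), KDM3B at 35.7 and 36.3 TPM and KDM4A at 22.5 and 22.9 TPM. These 3 were picked once their values were known. The integrated stress response factor ATF4 also drives DDIT4 and STC2, so 10 other ATF4 targets were read. In HCT116, 4 of them lay above control and 6 below, beside 60.8% of all genes above (median -0.07), with ATF3 at 22.1 and 35.6 TPM and CHAC1 at 11.4 and 7.63 TPM. In SW480, 8 of the 10 lay above control, beside 38.8% of all genes (median 0.15), and TRIB3 was at 44.5 and 65.5 TPM.

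**Figure D5:**
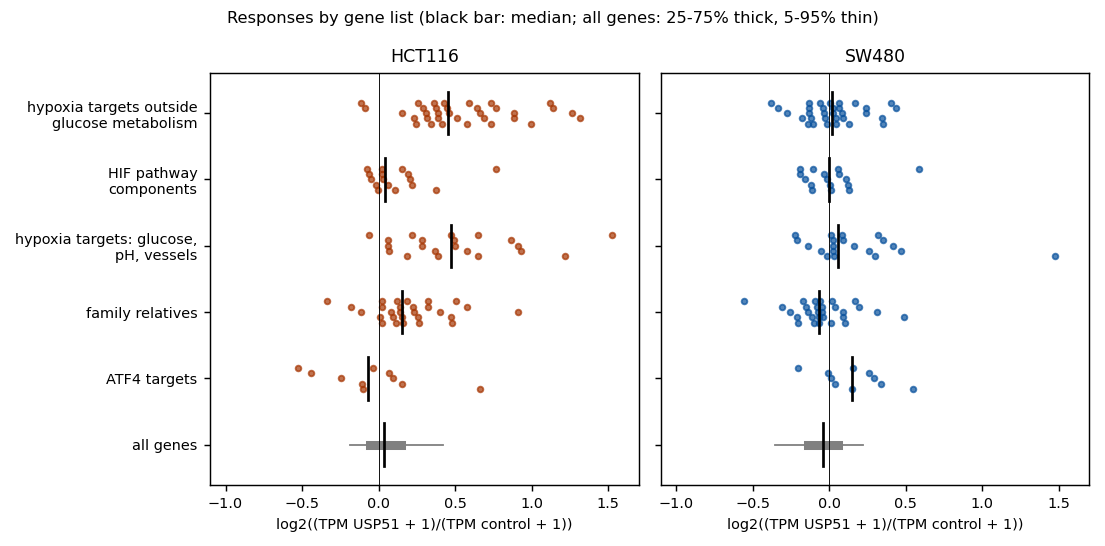
Responses of each list in HCT116 (left) and SW480 (right), 1 point per measured gene, with the median as a black bar and all genes as a grey bar. In HCT116 the medians are 0.45 for the members, 0.47 for the targets in glucose use, pH and vessels, 0.15 for family relatives, 0.04 for HIF pathway components and -0.07 for ATF4 targets.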

How the data were processed

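RNA sequencing of 12 libraries (4 groups of 3) was deposited as 1 table of 84345 RefSeq transcript rows. TopHat, DESeq 1.32.0 and hg38 are named in the submitters' processing notes, and what each did, the counting tool and strand use were not given in the sources used here. Deposited by the authors were estimated counts, TPM values and FPKM values, per the file headers, and the group means of each were used. The 36 single-library columns, whose codes match no label, were not used, so the edgeR tests planned for single libraries were not run and a rule of size replaced them.

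Transcripts were summed per gene, and symbols came from RefSeq (GRCh38.p14; FUT11 is listed there as POFUT4). Responses used a pseudocount of 1 TPM, a filter of 1 TPM in at least 1 mean compared, and thresholds of 1.5-fold and 2-fold. Count ratios used means rounded to whole numbers and 95% exact intervals (scipy 1.17.1). Mean totals were 15506686 to 15920306 counts. PCR copies are not independent molecules. The ratio calculation was tested on simulated data. Scaling factors for alternatives came from edgeR 4.0.16 (R 4.3.3).

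The members, lists and thresholds were chosen with earlier results of these data known. Members were described in all 4 means where they passed 1.5-fold, were the most abundant of their role, lay below the filter, or differed in sign between lines with 1 response past 1.2-fold. Other genes were named as known HIF regulators or for a list's largest ratios. Strand use being unknown, reads of 7 members that overlap another gene of the table (BNIP3, FAM162A, LOX, BHLHE41, DEPP1, ANKRD37 and ANKZF1) cannot be told apart from that gene's.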

Additional observations from a re-analysis of the deposited data

How the results depend on the processing

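The 9 alternatives run were a pseudocount of 0.1 TPM, no filter, at least 20 counts, FPKM, CPM without factors or with TMM, RLE or upper-quartile factors, and curated transcripts alone. In HCT116 the members at least 1.5-fold higher numbered 12 to 15, with a median of 0.41 to 0.52, and all 34 kept their sign. KDM4B was lost with FPKM, TMM, RLE and curated transcripts, RIMKLA with FPKM and PPFIA4 with curated transcripts. In SW480 the median was at most 0.09, and BHLHE40, HILPDA, KDM3A, KDM4B, PLOD1 and ZNF395 changed sign. With curated transcripts alone 1 member, YEATS2 at -0.62, was 1.5-fold lower in SW480. The members with a 1.5-fold larger response in HCT116 numbered 8 to 14 (8 with TMM or RLE, which lost BHLHE40, KDM4B, P4HA2 and YEATS2 and gained DEPP1), and the difference for KDM4B turned to -0.21 with curated transcripts, an alternative that drops reads assigned to predicted transcripts. The small differences for BHLHE41 and SPAG4 changed sign with a pseudocount of 0.1 TPM.

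Over all genes, the 243 at least 1.5-fold higher and 18 lower in HCT116 became 501 and 51 with a pseudocount of 0.1, 143 higher with FPKM and 48 lower with curated transcripts. In SW480 the 65 higher and 108 lower became 150 and 225 with a pseudocount of 0.1, 59 lower with FPKM and 163 lower with curated transcripts, and the higher numbered 115 to 127 in CPM. Of the differences between lines, 448 and 52, FPKM gave 242 larger in HCT116, and the 52 became 92 with a pseudocount of 0.1, 94 without a filter, 90 with TMM, 91 with RLE and 97 with curated transcripts.

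No paired analysis was possible because single-library columns could not be matched to labels, and for the same reason leaving out a replicate and DESeq2 were not run. Depth limits BNIP3, PLOD2, ANGPTL4 and DEPP1 in SW480 and VLDLR and RORA in HCT116, where means hold few counts.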
